A study of Mus musculus with 8 samples.

Results

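*Cdkn1a* encodes p21, an inhibitor of cyclin-dependent kinases, and is a classical target of the transcription factor p53. It was examined here together with 8 other p53 targets, *Mdm2*, *Ccng1*, *Bax*, *Bbc3*, *Trp53inp1*, *Plk2*, *Phlda3* and *Zmat3*, to ask whether a lower level of *Cdkn1a* in NOX4-deficient muscle was shared by the other genes. These 9 genes were chosen by name from the 32390 rows of a table of read counts, and all 9 had a row and passed the filter on low counts. Bulk RNA-seq libraries had been made from gastrocnemius, a calf muscle, of 21-month-old mice. Of these, 4 were Nox4 fl/fl (control) and 4 were MckCre:Nox4 fl/fl (NOX4-deficient). Both genotypes carry the floxed *Nox4* alleles, and the NOX4-deficient mice also carry Cre under the *Mck* promoter, which is active mainly in skeletal muscle and less in heart, so that other cell types of the muscle can keep *Nox4*. The mice were chow-fed males, and their samples carry the same batch label. Each library is a separate sample by its label and is taken as 1 mouse.

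In unstressed cells p53 protein is kept low by the ubiquitin ligase MDM2, whose gene is itself a p53 target. After DNA damage and other stresses p53 is stabilized, mostly without a change in its mRNA, and activates genes that stop the cell cycle (*Cdkn1a*), promote cell death (*Bax*, *Bbc3*) or feed back on p53 (*Mdm2*, *Ccng1*). Many of these genes also respond to other factors. In muscle *Cdkn1a* is known to rise during differentiation, with disuse and denervation, and in response to glucocorticoids and FOXO factors, and its product is used as a marker of senescence.

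The letters of the promoter windows are shown to make visible where the p53 motif lies in the genes that moved and in those that did not. RefSeq windows of 250 bases before to 50 bases after an annotated start (GRCm38.p6, a different build from the GRCm39 that the submitters' processing notes name for the counts) were found for 7 of the 9 genes, in 10 windows. None was found for *Trp53inp1* and *Zmat3*. The p53 half-site consensus was matched without mismatch in 4 of the 10 windows, 1 each of *Cdkn1a*, *Mdm2*, *Ccng1* and *Bax*, against 8.36% of the 32851 windows of all genes. This consensus reads the same on both strands, so a match on one is a match on the other. Each is given with 10 bases on either side, read along the gene from 5′ to 3′, with the half-site in capitals and bases counted from 1 at the start of the window.
Cdkn1a, half-site at bases 178 to 187 of its window (chr17:29090896-29090925, plus strand): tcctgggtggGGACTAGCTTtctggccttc
Cdkn1a, half-site at bases 200 to 209 of its window (chr17:29090918-29090947, plus strand): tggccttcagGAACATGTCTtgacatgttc
Mdm2, half-site at bases 65 to 74 of its window (chr10:117710925-117710954, minus strand): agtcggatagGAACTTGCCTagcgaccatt
Ccng1, half-site at bases 66 to 75 of its window (chr11:40755452-40755481, minus strand): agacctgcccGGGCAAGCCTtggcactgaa
Bax, half-site at bases 50 to 59 of its window (chr7:45467080-45467109, minus strand): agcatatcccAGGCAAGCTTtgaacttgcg
*Cdkn1a* has a window at each of 2 annotated starts, which lie 2790 bases apart. Both half-sites are in the window of the upstream start, 2863 and 2841 bases before the downstream start, and none is in the window of the downstream start. The core CATG was searched as well, on both strands and in all 10 windows. It overlaps the half-site at bases 200 to 209 and occurs again at bases 11 to 14 and at bases 213 to 216, the latter just after that half-site, where the 10 bases as a whole do not match the consensus. CATG was found in 3 of the 10 windows, 1 each of *Cdkn1a*, *Bax* and *Phlda3*, against 61.1% of all windows. The whole upstream window of *Cdkn1a*, on the plus strand, is given with the half-sites in capitals.
Cdkn1a, upstream start (chr17:29090729-29091028, plus strand): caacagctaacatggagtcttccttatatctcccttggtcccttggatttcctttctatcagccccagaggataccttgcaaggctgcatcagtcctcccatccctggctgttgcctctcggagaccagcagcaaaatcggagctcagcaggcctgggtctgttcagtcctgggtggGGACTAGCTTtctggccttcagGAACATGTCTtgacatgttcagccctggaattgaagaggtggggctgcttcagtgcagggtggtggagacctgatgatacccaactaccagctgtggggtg
*Phlda3*, the other gene of the 9 that fell, had no whole half-site in its window on the plus strand. The last 8 bases of that window, gaacatgt, match the first 8 positions of the half-site, and the letters beyond the window were not searched. There and in the downstream window of *Cdkn1a* the capitals mark GGGCGG or its reverse complement, the GC box bound by Sp1-type factors, which occurred in 8 of the 10 windows and in 35.7% of all windows.
Cdkn1a, downstream start (chr17:29093519-29093818, plus strand): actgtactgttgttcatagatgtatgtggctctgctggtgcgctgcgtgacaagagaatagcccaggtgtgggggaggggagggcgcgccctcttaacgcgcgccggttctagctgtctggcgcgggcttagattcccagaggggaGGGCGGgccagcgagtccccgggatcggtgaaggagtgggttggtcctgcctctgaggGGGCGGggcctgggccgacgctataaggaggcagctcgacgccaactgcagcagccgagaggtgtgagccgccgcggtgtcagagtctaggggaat
Phlda3 (chr1:135765835-135766134, plus strand): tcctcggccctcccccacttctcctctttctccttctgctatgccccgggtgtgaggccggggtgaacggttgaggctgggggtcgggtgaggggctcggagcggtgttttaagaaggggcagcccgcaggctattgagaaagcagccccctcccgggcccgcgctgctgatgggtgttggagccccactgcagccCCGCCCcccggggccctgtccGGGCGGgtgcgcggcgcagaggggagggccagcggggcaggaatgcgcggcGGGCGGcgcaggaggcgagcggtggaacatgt
A match is a string of letters, and binding of p53 was not measured.

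The libraries held between 16350548 and 19804661 counts. Levels are given as CPM, the counts of a gene relative to library size on the usual megaread scale, with library sizes scaled by TMM to correct for differences in composition. A gene was called when its adjusted p-value was under 0.05 and its log2 fold change, NOX4-deficient over control, was over 0.5 in size. In edgeR, with quasi-likelihood p-values adjusted by Benjamini-Hochberg, 784 of 12725 rows (6.16%) were called, of which 443 (3.48% of rows) were called lower, 341 (2.68%) were called higher, and the median log2 fold change was 0.01. The deleted gene itself, *Nox4*, had 5.09, 2.47, 1.87 and 3.64 CPM in controls 1 to 4 and 1.74, 2.17, 2.21 and 2.17 CPM in NOX4-deficient mice 1 to 4. Its log2 fold change was -0.65 (SE 0.29, edgeR adjusted p = 0.207), so that at these few counts its mRNA does not separate the genotypes. Defining markers of skeletal muscle fibers, such as *Ckm* and *Acta1*, were abundant in all libraries, with a summed level of the 11 genes between 147362 and 192944 CPM. None of the 11 was called by edgeR or DESeq2, and 0 had an unadjusted p under 0.05 in edgeR. In bulk muscle, fewer cells of a type and less RNA per cell cannot be told apart.

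*Cdkn1a* fell to 24.4% of its control level, the largest change among the 9 genes. It had 80.2, 69.0, 66.0 and 175 CPM in controls 1 to 4. In NOX4-deficient mice 1 to 4 it had 29.7, 26.5, 22.6 and 16.5 CPM. All 4 NOX4-deficient libraries lay below all 4 controls, and control 4 stood far above the other controls. The means were 97.5 ± 52.0 CPM (SD, n = 4) and 23.8 ± 5.69 CPM (SD, n = 4). The log2 fold change was -2.03 (SE 0.33, 95% interval -2.79 to -1.28, edgeR adjusted p = 0.00841). Permuting the 8 CPM values between genotypes (exact, two-sided) gave p = 0.0286, the smallest that 4 against 4 samples allow. *Cdkn1a* was known to be lower in these libraries when the set was chosen, so neither p-value is an independent test of its fall. Control 4 had 2.44 times the mean of the other 3 controls (71.7 ± 7.52 CPM, SD, n = 3), which in turn was 3.01 times the NOX4-deficient mean. Without control 4 the log2 fold change was -1.59 (SE 0.17, edgeR adjusted p = 6.03e-04), so that *Cdkn1a* was still called and the fall was smaller. With the replicate number as a block it was -1.91 and not called (edgeR adjusted p = 0.0718), though the numbers were not taken as pairs. The exons of *Cdkn1a* overlap those of a gene model, AC167363.2, on the other strand by 273 bases in GENCODE M21, and unstranded reads of the 2 cannot be told apart.

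*Phlda3* encodes a pleckstrin homology domain protein that binds membrane phosphoinositides in competition with the kinase AKT and so restrains AKT. It was the only other gene of the 9 that was called. Controls 1 to 4 had 167, 136, 132 and 142 CPM. NOX4-deficient mice 1 to 4 had 77.2, 75.9, 78.6 and 80.7 CPM. The groups were well apart, and the 4 NOX4-deficient libraries were closely alike, with 78.1 ± 2.07 CPM (SD, n = 4) against 144 ± 15.5 CPM (SD, n = 4). The log2 fold change was -0.89 (SE 0.10, 95% interval -1.10 to -0.67, edgeR adjusted p = 4.52e-04), which is 54.1% of the control level. Unlike *Cdkn1a*, *Phlda3* in control 4 lay within the range of the other controls.

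**Figure D1:**
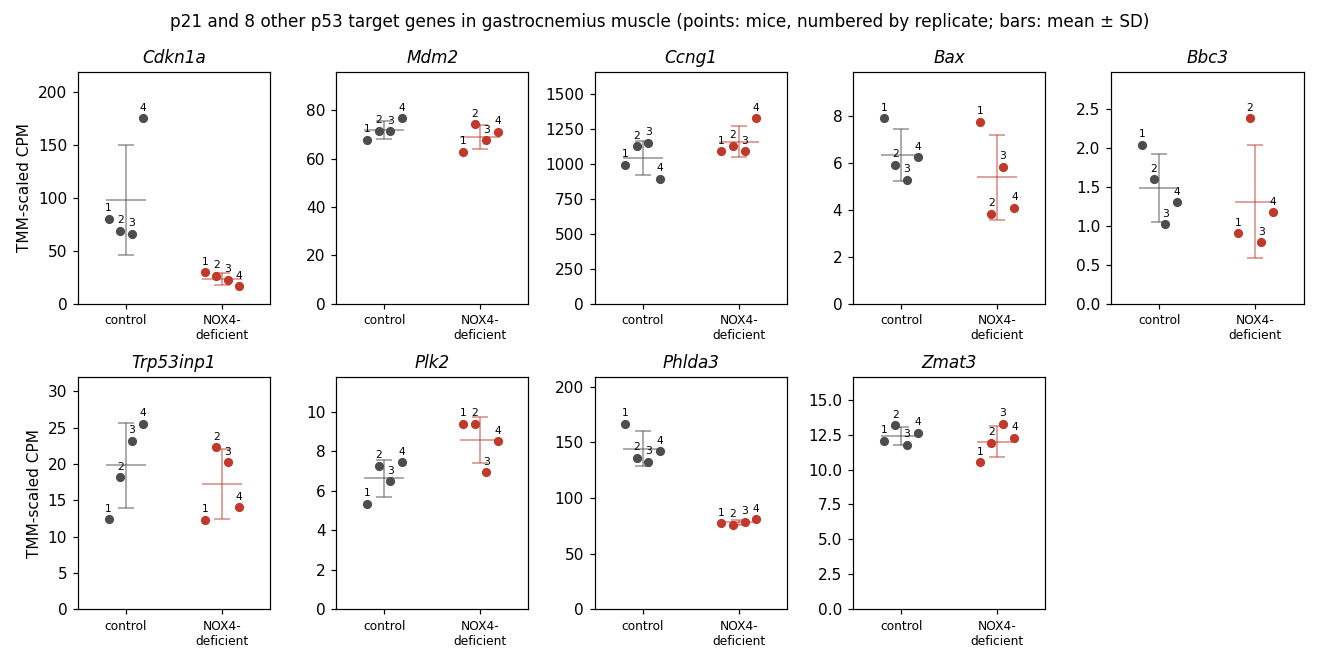
TMM-scaled CPM (vertical axes, from 0) of p21 and 8 other p53 target genes in each of 4 control (grey) and 4 NOX4-deficient (red) mice, numbered by replicate, with mean and SD. In *Cdkn1a* and *Phlda3* all 4 NOX4-deficient mice lie below the lowest control, and in *Cdkn1a* control 4 reaches 175 CPM.

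Over all rows tested, 8.97% had all 4 NOX4-deficient libraries below all controls. Among the 9 genes this held for *Cdkn1a* and *Phlda3*, and the reverse held for none, against 7.2% of all rows. The genes that feed back on p53 were not called.

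*Mdm2*, which encodes the ligase that marks p53 for degradation, differed little between genotypes. Controls 1 to 4 had 67.8, 71.6, 71.4 and 76.7 CPM, and NOX4-deficient mice 1 to 4 had 62.7, 74.3, 67.6 and 71.2 CPM. The ranges overlapped over most of their width, and the log2 fold change was -0.06 (SE 0.09, edgeR adjusted p = 0.755). Its 95% interval, from -0.26 to 0.14, leaves out a change of the minimum size for a call in either direction. *Ccng1*, encoding cyclin G1, a p53 target that acts with the phosphatase PP2A on MDM2, was the most abundant of the 9 genes. It had 993, 1125, 1150 and 893 CPM in controls 1 to 4 and 1091, 1131, 1089 and 1326 CPM in NOX4-deficient mice 1 to 4. The groups overlapped, with a log2 fold change of 0.16 (SE 0.12, 95% interval -0.10 to 0.41, edgeR adjusted p = 0.464). Control 4, highest for *Cdkn1a*, was the lowest library for *Ccng1*, and NOX4-deficient mouse 4, lowest for *Cdkn1a*, was the highest.

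The targets with roles in cell death were expressed at low levels. *Bax*, whose product opens the outer mitochondrial membrane and whose exons overlap a gene model on the same strand, Gm45808, by 192 bases, had 7.91, 5.92, 5.30 and 6.24 CPM in controls 1 to 4 and 7.76, 3.84, 5.83 and 4.10 CPM in NOX4-deficient mice 1 to 4. *Bbc3*, which encodes the BAX activator PUMA, had 19 to 34 counts in controls and 15 to 47 counts in NOX4-deficient mice. Both genes overlapped between the genotypes, and the highest *Bbc3* library, 2.38 CPM, was NOX4-deficient. The log2 fold change of *Bax* was -0.24 (SE 0.23, 95% interval -0.73 to 0.26, edgeR adjusted p = 0.586). That of *Bbc3* was -0.17 (SE 0.37, 95% interval -0.98 to 0.65, edgeR adjusted p = 0.838). These intervals are wide enough to hold changes past the minimum size, so that the values do not show that either gene is unchanged. *Trp53inp1*, whose product takes part in stress-induced apoptosis and autophagy, had 12.3, 18.2, 23.2 and 25.6 CPM in controls 1 to 4 and 12.3, 22.3, 20.2 and 14.0 CPM in NOX4-deficient mice 1 to 4. The ranges overlapped almost fully, with a log2 fold change of -0.20 (SE 0.24, edgeR adjusted p = 0.663).

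*Plk2* and *Zmat3* complete the set. *Plk2*, a polo-like kinase induced by stress, had 5.33, 7.26, 6.47 and 7.43 CPM in controls 1 to 4 and 9.38, 9.41, 6.94 and 8.50 CPM in NOX4-deficient mice 1 to 4. In 3 of the 4 NOX4-deficient libraries it was above the highest control, the opposite direction to *Cdkn1a*, and it was not called (log2 fold change 0.37, SE 0.16, 95% interval 0.02 to 0.71, edgeR adjusted p = 0.194). *Zmat3*, which encodes an RNA-binding zinc finger protein, stayed between 10.5 and 13.3 CPM in all 8 libraries. Its log2 fold change was -0.05 (SE 0.12, edgeR adjusted p = 0.858), and its 95% interval, -0.30 to 0.21, holds no change of the minimum size.

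**Figure D2:**
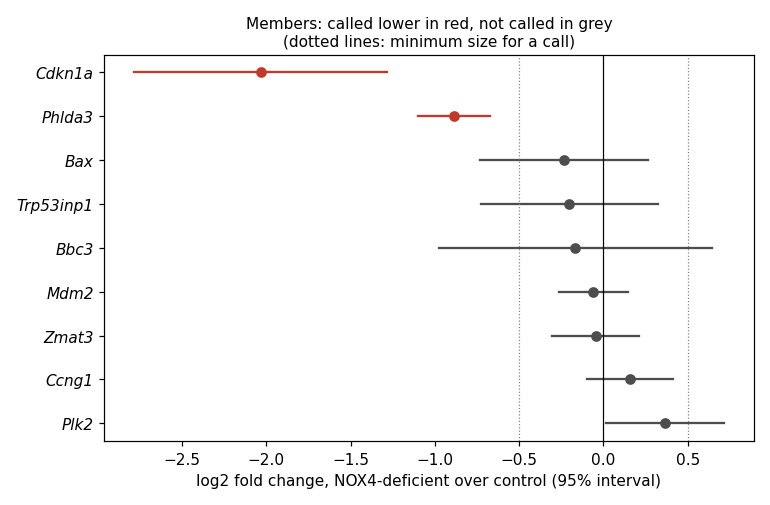
Log2 fold change, NOX4-deficient over control, of the 9 genes (points) with 95% intervals (lines) from edgeR, with calls in red and dotted lines at the minimum size of 0.5. *Cdkn1a* at -2.03 and *Phlda3* at -0.89 lie past the dotted line with their whole intervals, and the other 7 genes have intervals that reach inside it.

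Thus 2 of the 9 genes were called, where 6.16% of all rows were. Both were lower, against 3.48% of rows called lower, and none was higher, against 2.68%. The fall of *Cdkn1a* was known when the set was chosen, and of the other 8 genes 1 was called. The median log2 fold change of the 9 was -0.17, with 7 negative and 2 positive values. To compare *Cdkn1a* with each of the other 8 genes free of any scaling between libraries, the log2 ratio of the 2 genes was taken within each library. Against each of the 8 the ratio was lower in all 4 NOX4-deficient libraries than in any control. Its change ran from -2.31 against *Plk2* to -1.06 against *Phlda3*, and was -1.88 against *Mdm2*. These 8 ratios share the *Cdkn1a* values, which were known to be lower when the set was chosen, and are given as a description with no test.

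Per kilobase of exon (union of exons in GENCODE M21), the control levels were highest for *Ccng1* at 296 CPM per kb, then *Phlda3* at 92.7, *Cdkn1a* at 27.5 and *Mdm2* at 14.1 CPM per kb. The level of *Bax* was 4.02 ± 0.71 CPM per kb (SD, n = 4) and that of *Trp53inp1* 3.06 ± 0.90, and these neighbours overlapped between libraries. *Plk2*, *Zmat3* and *Bbc3* followed at 1.48, 1.08 and 0.70 CPM per kb. In NOX4-deficient muscle *Cdkn1a* dropped behind *Mdm2*, at 6.70 ± 1.60 CPM per kb (SD, n = 4) against 13.6 ± 0.98, and the libraries of the 2 genes did not overlap in either genotype.

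Among 51 further p53 targets taken as a list, 45 could be tested, of which 2 were called lower, 1 higher and 42 not called. Called lower were thus 4.44% of the list against 3.48% of all rows, and called higher 2.22% against 2.68%. The median log2 fold change of the 45 was 0.12, with 16 negative and 29 positive values, against 0.01 over all rows. An unadjusted p under 0.05 in edgeR was found for 15. All 4 NOX4-deficient libraries lay below all controls for 5 and above for 3, where 8.97% and 7.2% of all rows did so. The genes called lower were *Eda2r* and *Sesn1*. *Eda2r*, a receptor of the tumor necrosis factor family that binds ectodysplasin A2, had 81.7, 92.9, 110 and 131 CPM in controls 1 to 4 and 40.2, 62.7, 22.5 and 41.5 CPM in NOX4-deficient mice 1 to 4. The groups did not overlap, and the log2 fold change was -1.31 (SE 0.27, edgeR adjusted p = 0.0185). Without NOX4-deficient mouse 1 the adjusted p of *Eda2r* in edgeR was 0.0597, and with no filter on low counts it was 0.0765.
*Sesn1*, a sestrin that restrains mTORC1, had 27.1, 30.9, 36.5 and 52.9 CPM in controls 1 to 4 and 16.4, 18.2, 22.0 and 20.1 CPM in NOX4-deficient mice 1 to 4. Its groups did not overlap (log2 fold change -0.95, SE 0.19, edgeR adjusted p = 0.0119), and as with *Cdkn1a* control 4 was the highest library, at 1.68 times the mean of the other 3 controls. *Ephx1*, the microsomal epoxide hydrolase, rose from 12.3 ± 1.87 to 17.7 ± 0.90 CPM (SD, n = 4 each; log2 fold change 0.53, SE 0.13, edgeR adjusted p = 0.0266). The call of *Ephx1* was lost without any 1 of 6 libraries, controls 2, 3 and 4 and NOX4-deficient mice 1, 3 and 4, with edgeR adjusted p-values from 0.0524 to 0.0751.

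**Figure D3:**
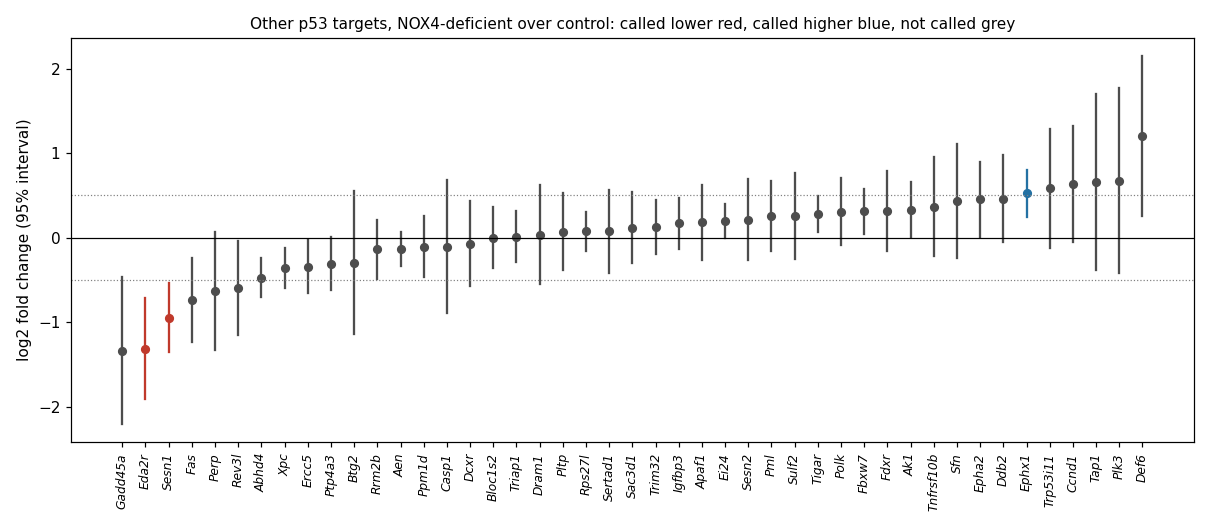
Log2 fold change, NOX4-deficient over control (vertical axis), with 95% intervals, of the 45 further p53 targets tested, ordered by value. *Eda2r* and *Sesn1* (red) were called lower and *Ephx1* (blue) higher, and 29 of the 45 genes have a positive value.

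Some genes of the list that were not called are given here, picked after their values were seen. *Abhd4* passed the adjusted p threshold but fell short of the minimum size (log2 fold change -0.47, edgeR adjusted p = 0.021). *Gadd45a*, a growth arrest gene, had 73.5, 25.3, 26.4 and 57.5 CPM in controls 1 to 4 and 15.8, 12.9, 26.3 and 17.3 CPM in NOX4-deficient mice 1 to 4. *Fas*, the death receptor, averaged 5.30 ± 0.72 CPM in controls and 3.19 ± 0.92 CPM in the NOX4-deficient mice (SD, n = 4 each), and no library of one group lay within the other. The log2 fold changes of *Gadd45a* and *Fas* were -1.33 (SE 0.38, edgeR adjusted p = 0.0704) and -0.74 (SE 0.23, edgeR adjusted p = 0.0689), so that neither was called. The call depended on the fit. DESeq2 called both, with adjusted p-values of 0.0258 for *Gadd45a* and 0.0324 for *Fas*. *Gadd45a* was also called by edgeR without the robust option (adjusted p = 0.0344) and without control 2 (0.0355) or control 3 (0.0435), and *Fas* with odd and even replicate numbers as a covariate (0.0463). *Tigar*, a regulator of glycolysis, had a positive value (0.28, SE 0.10, edgeR adjusted p = 0.101), with all 4 NOX4-deficient libraries above the controls. Positive values were also found for *Sesn2* (0.21, SE 0.22, adjusted p = 0.610) and *Ddb2* (0.46, SE 0.24, adjusted p = 0.272). *Pmaip1*, *Gtse1*, *Pidd1*, *Gdf15*, *Psrc1* and *Lif* had too few counts to be tested, with at most 11 in a library.

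Of 27 regulators and relatives of p53, 24 were tested, and 2 were called lower (8.33%, against 3.48% of all rows) and none higher. *Trp63*, the p53 relative p63, had 21.9, 21.8, 21.8 and 34.6 CPM in controls 1 to 4 and 10.6, 18.3, 15.5 and 13.0 CPM in NOX4-deficient mice 1 to 4. The groups did not overlap and control 4 again stood above the others (log2 fold change -0.80, SE 0.19, edgeR adjusted p = 0.0266). Without control 4 the log2 fold change of *Trp63* was -0.61 (edgeR adjusted p = 0.0683), and the call was also lost without NOX4-deficient mouse 1 (0.0637), 3 (0.0553) or 4 (0.064). *Banp*, a nuclear matrix protein reported to bind p53, fell from 9.72 ± 4.07 to 3.38 ± 1.13 CPM (SD, n = 4 each; log2 fold change -1.53, SE 0.31, edgeR adjusted p = 0.0143). With the replicate number as a block *Banp* was not called (edgeR adjusted p = 0.0645). The other inhibitor of p53, *Mdm4*, was not called (0.34, SE 0.15, edgeR adjusted p = 0.201). *Chek1*, *Cdkn2a* and *Trp73* had too few counts for a test.

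In the list of cell cycle inhibitors and their partners, 1 of 17 genes tested was called lower and 1 higher, 5.88% each way against 3.48% and 2.68% of all rows. *Rbl2*, encoding the pocket protein p130, had 80.9, 83.9, 87.1 and 136 CPM in controls 1 to 4 and 47.0, 64.3, 43.4 and 57.9 CPM in NOX4-deficient mice 1 to 4 (log2 fold change -0.87, SE 0.18, edgeR adjusted p = 0.0146). *Ccnd2*, encoding cyclin D2, rose from 6.61 ± 1.39 to 11.1 ± 1.22 CPM (SD, n = 4 each; log2 fold change 0.75, SE 0.17, edgeR adjusted p = 0.019). The call of *Ccnd2* was lost without control 4 (edgeR adjusted p = 0.0557) or NOX4-deficient mouse 3 (0.0528). *Cdkn1b*, which encodes p27, a close relative of p21, averaged 51.2 ± 3.31 CPM in controls and 40.3 ± 3.55 CPM in the NOX4-deficient mice (SD, n = 4 each) and was not called (-0.35, SE 0.10, edgeR adjusted p = 0.0561). *Cdkn2a*, which encodes the senescence marker p16, had 0 to 2 counts in every library.
Most genes of proliferating cells had few counts. Of 24, 15 had too few counts for a test, among them *Mki67* with 2 to 9 counts per library and *Top2a* with 0 to 10, and none of the 9 tested was called by edgeR or DESeq2 (1 had an unadjusted p under 0.05 in edgeR). The summed level of the 24 was 42.7 to 45.2 CPM in controls and 38.9 to 51.6 CPM in NOX4-deficient mice. The lower *Cdkn1a* was thus not accompanied by a detectable change of these genes at this depth.

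Of 17 tested genes of the BCL2 family and its partners, 1 was called lower (5.88%, against 3.48% of all rows) and none higher. It was *Bnip3*, a mitophagy receptor, which fell from 323 ± 81.2 to 177 ± 14.4 CPM (SD, n = 4 each; log2 fold change -0.87, SE 0.15, edgeR adjusted p = 0.00619). *Bcl2l1* (-0.27), *Bcl2* (-0.26) and *Mcl1* (-0.22), which oppose BAX, had edgeR adjusted p-values of 0.376, 0.470 and 0.235. These were picked after their values were seen. Of the 17 genes tested, 8 had negative and 9 positive values, with a median log2 fold change of 0.11. Among 18 senescence markers, 11 were tested, none was called lower and *Igfbp5*, an IGF-binding protein, was called higher (9.09%, against 2.68% of all rows). It rose from 237 ± 27.7 to 641 ± 185 CPM (SD, n = 4 each; log2 fold change 1.44, SE 0.18, edgeR adjusted p = 9.84e-04). *Cdkn2a*, *Gdf15*, *Il6*, *Tnf*, *Cxcl1*, *Ccl2* and *Mmp12* had at most 10 counts in any library and could not be tested.

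*Cdkn1a* was also set beside genes that respond to glucocorticoids or FOXO factors, a list that was chosen with the results of these data known. Of 23 tested, 11 were called lower and none higher, which is 47.8% against 3.48% of all rows, with a median log2 fold change of -0.72. Without control 4 the number called was 6, without NOX4-deficient mouse 2 it was 7, and with no filter on low counts it was 7. The 3 with the smallest p-values were *Zbtb16*, *Lpin1* and *Mt1*. *Zbtb16*, a zinc finger repressor, fell from 140 ± 3.70 to 35.5 ± 12.7 CPM (SD, n = 4 each; log2 fold change -1.98, SE 0.21, edgeR adjusted p = 6.01e-04). *Lpin1*, a phosphatidate phosphatase, had 655, 634, 614 and 970 CPM in controls 1 to 4 and 233, 289, 206 and 330 CPM in NOX4-deficient mice 1 to 4. *Mt1*, a metallothionein, had 13.7, 12.6, 15.2 and 24.7 CPM in controls 1 to 4 and 4.99, 3.24, 5.26 and 5.22 CPM in NOX4-deficient mice 1 to 4. *Lpin1* and *Mt1* were thus highest in control 4, like *Cdkn1a*, *Sesn1*, *Trp63* and *Rbl2*, whereas *Zbtb16* was lowest there among the controls. Of 7 myogenic factors, 1 was called lower by edgeR (14.3%, against 3.48% of all rows) and 2 by DESeq2, which also called *Myog*. edgeR called *Myog* as well without control 3. *Myf6* was called by both (log2 fold change -1.16, SE 0.19, edgeR adjusted p = 0.00521), and had its highest value, 270 CPM, in control 4.

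The genes whose profile was most like that of *Cdkn1a* were sought among 8745 other genes with a mean of at least 5 CPM, by Pearson's r over the log2 CPM of the 8 libraries, given as a description. They were *Zrsr1* (r = 0.985), *Lztr1* (0.982), *Phf23* (0.980), *Slc15a4* (0.978) and *Eif4a1* (0.976). Of these, *Zrsr1*, *Slc15a4* and *Eif4a1* were called lower, with log2 fold changes of -1.13, -1.46 and -0.57. Among the other members the r with *Cdkn1a* was 0.881 for *Phlda3*, 0.412 for *Mdm2* and -0.792 for *Ccng1*. These values carry the difference between genotypes. After the group means were removed, r over the same 8 libraries was -0.02 for *Phlda3* and -0.894 for *Ccng1*, and leading genes were *Wsb1* (0.962), *Tmem39a* (0.960), *Dusp13* (0.955) and *Gja1* (0.947). None of the last 4 was called between genotypes, and control 4 was the highest control in each of them.

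Markers of other cells of the muscle were counted in the same way. All 11 macrophage and leukocyte markers had negative log2 fold changes, where 6065 of all 12725 rows did. *Cd163* was called, 1 of 11 (-1.29, SE 0.30, edgeR adjusted p = 0.0238), which is 9.09% against 3.48% of all rows called lower. Its call was lost without control 2 or NOX4-deficient mouse 1 or 4 (edgeR adjusted p = 0.0579, 0.0634 and 0.0573). The summed level of the 11 markers ran from 63.7 to 171 CPM in controls and from 32.1 to 98.1 CPM in NOX4-deficient mice. The hemoglobin genes *Hba-a1* and *Hbb-bs* were called higher, with log2 fold changes of 1.24 and 1.00 and edgeR adjusted p-values of 0.00978 and 0.0153. They are 2 of the 3 blood genes tested (66.7%, against 2.68% of all rows called higher). The summed level of 3 blood genes was 47.6 to 52.7 CPM in controls and 72.3 to 159 CPM in NOX4-deficient mice. No gene of the endothelial (9), fibro-adipogenic (9) and adipocyte (7) lists was called by edgeR or DESeq2 with genotype as the sole covariate, and 1, 1 and 0 of them had an unadjusted p under 0.05 in edgeR. Of 8 satellite cell markers tested *Sdc4*, which fibers may also express, was called lower (-1.13, SE 0.15, edgeR adjusted p = 0.00132). That is 12.5% of those tested, against 3.48% of all rows. Of the 8, 6 had positive and 2 negative values, with a median log2 fold change of 0.22. Summed levels of the endothelial list were 288 to 361 CPM in controls and 324 to 351 CPM in NOX4-deficient mice. Those of the fibro-adipogenic list were 849 to 1379 against 682 to 1142 CPM. For adipocytes they were 163 to 299 against 160 to 210 CPM, and for satellite cells 117 to 138 against 106 to 110 CPM. The satellite cell sum includes *Sdc4*, at 44.8 to 66.5 CPM in controls and 19.1 to 27.7 CPM in NOX4-deficient mice. No marker of these lists was at 0 in all 8 libraries. The part of these cells in the lower *Cdkn1a* and *Phlda3* was not tested.

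**Figure D4:**
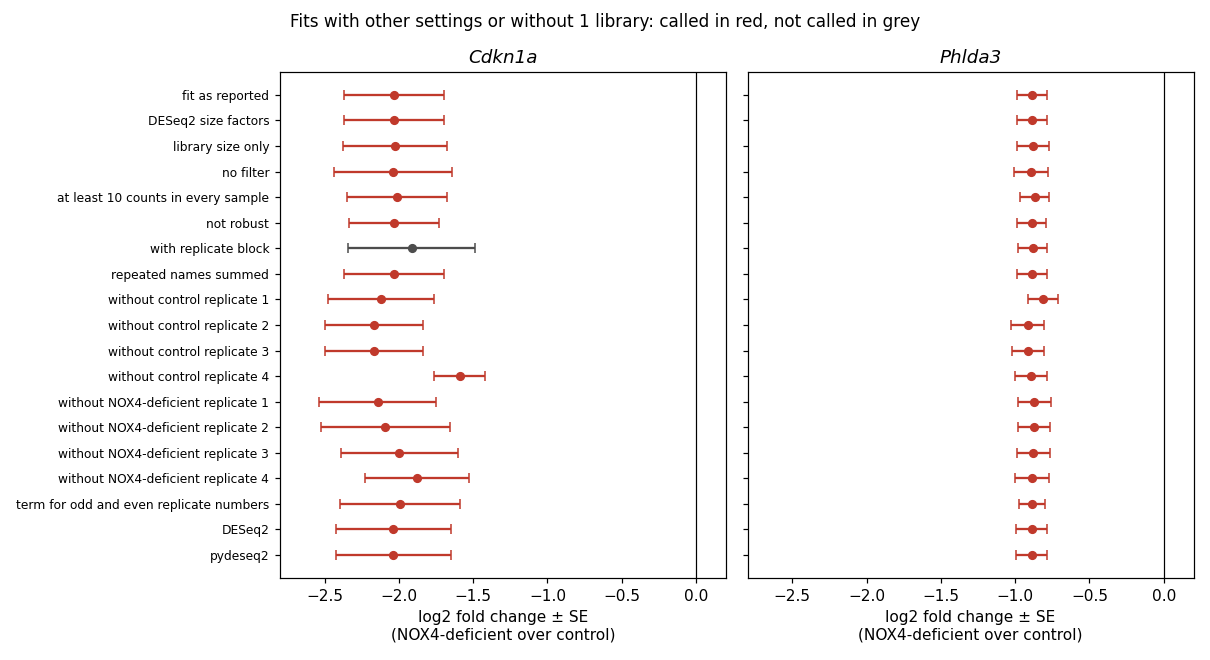
Log2 fold change ± SE of *Cdkn1a* (left) and *Phlda3* (right) under each setting or with 1 library left out, called in red and not called in grey. *Cdkn1a* moves from -2.17 to -1.59 and *Phlda3* from -0.92 to -0.81.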

How the data were processed

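Gastrocnemius RNA of 4 control and 4 NOX4-deficient mice had been sequenced as poly(A), unstranded, paired-end libraries. The values deposited by the authors are raw read counts for each gene, not normalized, from an nf-core RNA-seq pipeline. The submitters' processing notes name STAR and GRCm39, while the annotation release and the counter's settings are not given in the sources used here. Of 32390 rows, 412 have a name that already occurred, and the row with the higher total was used. Depth was 16350548 to 19804661 counts per library. Replicates differed by more than sampling noise (chi-square over its degrees of freedom, 13.8 to 58.2).

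Counts were fitted in edgeR 4.0.16 under R 4.3.3 (TMM, filterByExpr, robust glmQLFit, glmQLFTest) with genotype alone. Adjustment by Benjamini-Hochberg covered 12725 rows. Thresholds (adjusted p 0.05, log2 fold change 0.5) follow the study, which used a Python form of DESeq2. SE is the log2 fold change over the square root of F. The p-values measure the spread between these samples. In data simulated for this comparison, edgeR called 92% of 200 genes changed by 1 on the log2 scale among 12566 tested, and 5.15% of calls were false. The changed genes were drawn from rows with a mean over 5 CPM, so this share does not cover genes as low as *Bbc3*. Alternatives were DESeq2's size factors, unscaled library sizes, other filters on low counts, glmQLFit without the robust option, other thresholds, a replicate block, each library left out, summed repeated names, DESeq2 1.42.0 and pydeseq2 0.5.4. A fit with odd against even replicate numbers as a covariate was added after seeing the data. The set held 10 genes, 1 of which is not reported here, nor is 1 gene most like *Cdkn1a*. The members and 15 other lists (253 of 255 symbols matched) were chosen with earlier results of these data known. Named are the members, *Nox4*, up to 3 called genes with the smallest p-values per list and direction, and the 5 genes most like *Cdkn1a* by each of 2 measures. Other genes, such as *Mdm4*, *Tigar*, *Sesn2*, *Ddb2*, *Cdkn1b*, *Bcl2*, *Bcl2l1* and *Mcl1*, were picked after their values were seen. GTAAACA, TGACNNNGC and TATAAA were also searched on both strands of the windows and found in 2, 1 and 0 of the 10, against 3.65%, 12.4% and 13.6% of all windows.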

Additional observations from a re-analysis of the deposited data

Results flagged for a closer look

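Each group of 4 libraries was examined for a library far from the other 3, for the members, *Nox4*, the named list genes and the summed list levels, 88 groups in all. The measure was Dixon's ratio, the distance of the extreme library from its neighbour as a share of the whole range, and ratios above Dixon's 95% critical value were kept. This held in 9 groups, where chance alone flags about 1 in 20, or 4.4. Control replicate 4 accounts for 5 of them, as the highest library for *Cdkn1a* (ratio 0.869), *Trp63* (0.987), *Rbl2* (0.888), *Lpin1* (0.884) and the summed level of the cell cycle inhibitors and partners (0.84). The other 4 were NOX4-deficient replicate 1, lowest for *Nox4* (0.918) and *Myf6* (0.847), NOX4-deficient replicate 2, lowest for *Mt1* (0.87), and control replicate 1, highest for the summed adipocyte markers (0.862).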

How the results depend on the processing

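*Cdkn1a* stayed lower in all 20 alternatives, with log2 fold changes from -2.17 to -1.59, and was called in 19. When single libraries were left out the range was the same, -2.17 to -1.59, at edgeR adjusted p-values from 6.03e-04 to 0.0414. With the replicate number as a block it was -1.91 and not called (adjusted p = 0.0718). The numbers share no stated animal, litter or day, and deviations of same-numbered samples correlated at 0.223, 0.147, 0.041 and 0.041, so the numbers were not taken as pairs. Not every sample correlated best with its own number. Pairs with both numbers odd or both even all correlated positively. Mixed pairs were mostly negative, down to -0.215 for control 1 with NOX4-deficient mouse 4. What lies behind this was not tested. With odd and even numbers as a covariate *Cdkn1a* was at -1.99 (edgeR adjusted p = 0.0293). *Phlda3* was called in all 20 alternatives (-0.92 to -0.81), and no other member was called in any. The signs of 2 members turned without a call, *Bbc3* (lowest -0.63 with 1 library left out, 0.0145 without control replicate 1 and 0.0285 without NOX4-deficient replicate 3) and *Zmat3* (-0.0888 to 0.0216, positive without NOX4-deficient replicate 1). The number of rows called, 784, was 252 at an adjusted p under 0.01 and 499 to 712 with each library left out, lowest without control replicate 4. Over the lists, 25 genes were called, 10 at an adjusted p under 0.01, and 17 to 26 with each library left out. Of the further p53 targets, 3 were called, 5 with the replicate block, DESeq2, pydeseq2 or the odd and even numbers as covariate, 1 without NOX4-deficient replicate 1 and 0 at an adjusted p under 0.01. Of the p53 regulators, 2 were called, 1 with the replicate block (*Banp* was not, adjusted p = 0.0645), 1 without control replicate 4 or NOX4-deficient replicate 1, 3 or 4, and 0 at an adjusted p under 0.01. The replicate block also gave calls for *Fas* (adjusted p = 0.0373), *Myog* and 2 fibro-adipogenic genes, *Col1a1* and *Lum*, both higher. The cause of these changes was not tested. Counts were low for *Bbc3* and the untested genes. The intervals of *Bbc3* and *Bax* are wide, and what sets their width was not tested.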
